A study of Mus musculus with 7 samples.

Results

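The genes examined are 9 genes of the epidermal growth factor (EGF) pathway: the receptor genes Egfr, Erbb2 and Erbb3, the ligand genes Areg, Ereg, Hbegf and Tgfa, and the Ras genes Hras and Nras. They were chosen by name, out of 21938 protein-coding genes of the GENCODE M21 annotation. H3K27ac, a histone mark of active promoters and enhancers, was mapped by ChIP-seq in 3 tumour cell clones, each grown from a different skin tumour of a Cdkn2ab-/- mouse on an FVB/129P2 backcross background. All 3 clones lack Cdkn2ab and none serves as a control for another. The labels name no treatment, but per the study's methods tumour cells were first cultured in a medium with the HITES supplement, which contains EGF, and clones were later kept in serum-containing medium with or without it. Which medium each clone was in when fixed is not given in the sources used here, and the part of added EGF in the values of these genes was not tested. The last step of the deletion was made by the germline-active Act-Cre transgene, so the loss is not limited to skin. Each clone is a population picked in soft agar and expanded, so a clone stands for 1 tumour. Clones 1 and 2 were covered by 1 H3K27ac library each and clone 3 by 2 libraries that were merged before peaks were called, and 3 IgG libraries came from clones 1 and 3. The control behind the peak calls of clone 2 is not given in the sources used here, and its part in the fold enrichments of clone 2 and in the peaks found in clone 2 alone was not tested. The protocol text of the labels names CTCF, SMC1 and IgG antibodies, whereas the samples are labelled H3K27ac, and the sample labels were followed. With 1 peak list for each clone and 1 condition there was no comparison between groups to test, so all values are descriptions and the spread is that between clones (n = 3).

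EGF ligands are made as membrane-anchored precursors that are cut off the cell surface, and they bind receptors that pair and phosphorylate each other. Erbb2 has no known ligand and serves as the preferred partner of the other receptors, whereas Erbb3 binds neuregulins but has a weak kinase. The active receptors recruit Grb2 and Sos, which load Ras proteins with GTP and so start the Raf, MEK and ERK kinase cascade. In skin the pathway drives growth of keratinocytes and restrains hair follicle differentiation, and mutated Hras is the classical driver of chemically induced papillomas in mice. H3K27ac reports the state of the chromatin at a gene and not its protein, its mutations or the activity of the pathway.

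The lists of clones 1, 2 and 3 held 29182, 49587 and 29277 peaks on chromosomes 1 to 19, X and Y, and the number of reads mapped in each library was not used here. The summit reads of the peaks were solved from fold enrichment and p-value, and their medians were 37, 34 and 53. Intervals on reads below are exact 95% Poisson intervals and cover counting error only. Clone 3 had lower fold enrichments (median 5.38) than clones 1 and 2 (7.70 and 7.14), so raw folds were compared within a clone and not between clones. Markers of the possible cell types were read in the same way. Of 7 epithelial and keratinocyte markers only Krt14 had a promoter peak, which was 9.89-fold enriched and seen in clone 1, while Krt5, Krt8, Krt18, Trp63, Cdh1 and Epcam had none in any clone. The hair follicle markers Sox9 and Cdh3 carried promoter peaks in all 3 clones, Lhx2 in clone 2 and Lef1 in none. Of 5 mesenchymal markers, 5, 5 and 3 were marked in clones 1, 2 and 3, with Vim, Twist1 and Zeb1 in each, and the 2 endothelial and 2 immune markers were unmarked throughout. Whether this marker state moves with the values of the EGF pathway genes was not tested.

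A promoter peak was one within 1 kb of any annotated transcript start of the gene. By that measure 7 of the 9 genes carried H3K27ac in all 3 clones: Hras, Nras, Egfr, Erbb2, Areg, Ereg and Hbegf. Erbb3 and Tgfa had a promoter peak in clone 2 only. The counts were 7, 9 and 7 genes in clones 1, 2 and 3. Among all protein-coding genes 49.8%, 56.9% and 48.1% had a promoter peak in these clones and 46.5% had one in all 3.

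Sequences of the promoters are shown first for the genes whose values differ most in what follows: Nras with the highest level by fold, Erbb2 with the highest of a receptor, and Egfr and Areg, the genes with the lowest levels in clones 3 and 1 among those marked in every clone. They are RefSeq promoter windows on GRCm38.p6, from 250 bases before to 50 bases after the start, printed 5′ to 3′ along the gene. Of the 9 genes 6 matched the table, which are Hras, Nras, Egfr, Erbb2, Areg and Tgfa. Erbb3, Ereg and Hbegf are named only. Capitals mark matches on either strand to 6 motifs: AP-1 (TGAGTCA), the cyclic AMP response element CRE (TGACGTCA), TCF/LEF (CTTTGAT), TEAD (CATTCC), ETS (CCGGAAG) and the GC box bound by Sp1-type factors (GGGCGG).
Nras, chr3:103058035-103058334, plus strand: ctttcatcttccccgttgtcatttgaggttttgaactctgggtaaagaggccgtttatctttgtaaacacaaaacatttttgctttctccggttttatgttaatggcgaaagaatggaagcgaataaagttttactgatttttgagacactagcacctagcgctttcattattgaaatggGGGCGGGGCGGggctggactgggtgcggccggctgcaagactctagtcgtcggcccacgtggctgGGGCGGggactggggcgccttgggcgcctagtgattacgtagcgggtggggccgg
Erbb2, chr11:98412234-98412533, plus strand: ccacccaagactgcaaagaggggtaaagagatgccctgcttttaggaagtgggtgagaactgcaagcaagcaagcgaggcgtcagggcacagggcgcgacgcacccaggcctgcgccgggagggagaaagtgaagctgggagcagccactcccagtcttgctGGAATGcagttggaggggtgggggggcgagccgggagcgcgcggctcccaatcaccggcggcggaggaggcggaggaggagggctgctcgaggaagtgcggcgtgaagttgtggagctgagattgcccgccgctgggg
Egfr, chr11:16751953-16752252, plus strand: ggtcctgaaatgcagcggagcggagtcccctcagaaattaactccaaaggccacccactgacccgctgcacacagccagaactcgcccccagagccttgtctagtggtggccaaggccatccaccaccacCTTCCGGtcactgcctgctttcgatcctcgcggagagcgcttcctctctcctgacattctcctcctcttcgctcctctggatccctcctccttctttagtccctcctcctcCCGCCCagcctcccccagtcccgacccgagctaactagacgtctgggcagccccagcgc
Areg, chr5:91139349-91139648, plus strand: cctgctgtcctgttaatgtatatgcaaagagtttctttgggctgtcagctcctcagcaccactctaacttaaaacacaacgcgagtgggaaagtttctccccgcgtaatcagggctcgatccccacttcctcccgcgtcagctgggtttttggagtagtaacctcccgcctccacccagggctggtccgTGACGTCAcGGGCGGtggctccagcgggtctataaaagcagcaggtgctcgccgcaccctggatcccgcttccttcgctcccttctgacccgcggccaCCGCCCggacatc
The Areg window was the only one of the 6 with a CRE, which began 61 bp before the start and which 1.88% of the 27025 promoter windows of the table held. It overlapped no other motif, and a GC box followed it, 52 bp before the start. The Egfr window held 1 ETS match (9.12% of all windows) and 1 GC box, and the Erbb2 window 1 TEAD match (14.6% of all windows) and no GC box. Nras had 3 GC boxes, of which a pair overlapped by 1 base, and Hras had 3, against 35.9% of all windows with at least 1. None of the 6 windows held an AP-1 or a TCF/LEF match, which 5.17% and 3.72% of all windows did. All 6 were rich in CpG, from 15 CpG in Egfr to 34 in Hras, beside a median of 7.00 over all windows. A match here is a match of letters and not evidence of binding.

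Levels were put on a common scale as the percentile of a gene's highest promoter fold enrichment among all protein-coding genes of the clone, where genes without a peak share a percentile of 25.1, 21.6 and 25.9. The order of the mean percentiles was Nras, Erbb2, Ereg, Hras, Hbegf, Areg, Egfr, Erbb3 and Tgfa. Nras ranked first of the 9 by fold in every clone, and its range over clones lay above that of Erbb2, the next gene. From Erbb2 down to Egfr the ranges of neighbouring genes overlapped, although Hras was above Hbegf within each clone. Genes farther apart in that run could be separated: the range of Erbb2 (73.8 to 82.8) lay above those of Hbegf, Areg and Egfr, and the range of Ereg (69.9 to 82.9) above those of Hbegf and Egfr. Egfr lay above Erbb3 in each clone and the ranges of Egfr and Erbb3 did not overlap, while Erbb3 and Tgfa could not be ordered.

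**Figure D1:**
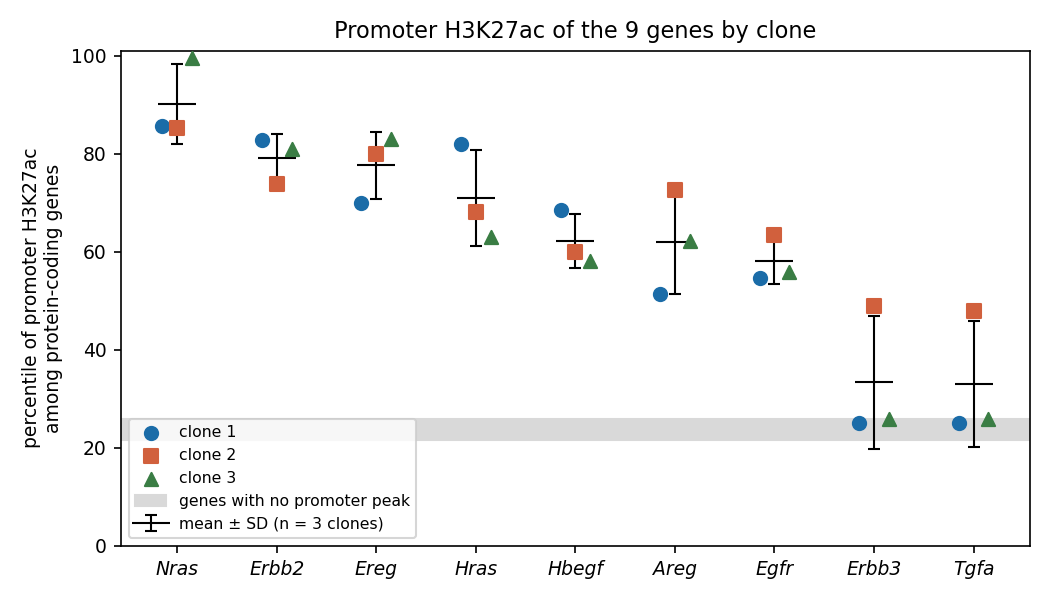
Percentile of the highest promoter H3K27ac fold enrichment of each gene among the protein-coding genes of the same clone (vertical axis, 0 to 100) for the 9 genes ordered by mean (horizontal axis); symbols are the clones, the black bars the mean ± SD over 3 clones, and the grey band the value shared by genes without a promoter peak. Nras reaches 99.6 in clone 3, whereas Erbb3 and Tgfa leave the band in clone 2 alone.

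Among the receptors, Erbb2 had the highest promoter level. Its gene (ENSMUSG00000062312.5) lies on chromosome 11 at chr11:98412470-98437716 on the plus strand of GRCm38. A single promoter peak in each clone covered the start, exon 1 and part of intron 1, with fold enrichments of 24.4, 41.8 and 9.39 in clones 1, 2 and 3. The corresponding percentiles were 82.8, 73.8 and 80.9 (79.2 ± 4.72, SD, n = 3). The summits were 321, 251 and 292 bp past the start and held 107 (87.7 to 129), 188 (162 to 217) and 74 (58.1 to 92.9) reads. The mark thus peaked just inside the gene in every clone. The gene whose 3 percentiles were nearest to those of Erbb2 was Nr2c2ap, with a largest difference of 0.896 points over the 3 clones.

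Egfr (ENSMUSG00000020122.16, chr11:16752203-16918158, plus strand) encodes the receptor that all 4 ligands examined here bind. Its promoter peak had fold enrichments of 6.83, 29.2 and 4.44 in clones 1, 2 and 3. In clone 2 the peak was 1659 bp wide, covered the start and held 129 reads (108 to 153). In clones 1 and 3 it was 723 and 644 bp wide, began past the outermost start and held 29 (19.4 to 41.6) and 40 (28.6 to 54.5) reads. The percentiles were 54.7, 63.3 and 55.9 (58.0 ± 4.65, SD, n = 3), and in every clone its fold was below the median of marked promoters, which was 18.8, 39.3 and 8.30. Slc46a1 had the nearest percentiles, with a largest difference of 0.538 points.

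Erbb3 (ENSMUSG00000018166.8, chr10:128567523-128589652, minus strand) had no promoter peak in clones 1 and 3. In clone 2 a peak of 1284 bp covered the start, with a fold enrichment of 9.47 and 46 summit reads (33.7 to 61.4), which put the gene at the percentile of 48.9. Of 3045 peaks of clone 2 with reads within 10% of that number, 41.2% overlapped a peak of clone 1 and 34.1% a peak of clone 3. Those peaks were not limited to promoters. Promoter peaks of any strength were found at 12480 protein-coding genes in clone 2 and at 10209 in all 3 clones. The share for promoter peaks of this strength was not computed.

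Among the ligands Ereg, which encodes epiregulin, had the highest mean promoter level (77.6 ± 6.84, SD, n = 3). The gene (ENSMUSG00000029377.5, chr5:91074622-91093646, plus strand) had 1 promoter peak in each clone, with fold enrichments of 15.6, 49.3 and 9.91 in clones 1, 2 and 3 and 62 (47.5 to 79.5), 211 (183 to 241) and 79 (62.5 to 98.5) reads. Their widths were 2161, 1862 and 2772 bp, and in clones 1 and 3 they were the widest promoter peaks of the 9 genes. By the bases under peaks within 1 kb of a start in place of the fold, Ereg was at percentiles of 92.4, 85.0 and 94.6, above its percentiles by fold in each clone (69.9, 80.0 and 82.9). For a gene with 1 annotated start, such as Ereg, this measure cannot exceed 2001 bases, which Ereg reached in clones 1 and 3. The nearest gene in pattern was Ppp3cc, with a largest difference of 1.19 points.

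Areg, which encodes amphiregulin, is the neighbour of Ereg (ENSMUSG00000029378.5, chr5:91139599-91148432, plus strand), with its start 65.0 kb further along the chromosome. It showed the largest SD of percentiles among the 7 genes marked in all clones (62.0 ± 10.6, n = 3). The fold enrichments were 4.77, 40.4 and 5.62 in clones 1, 2 and 3. In clone 1 the peak held 17 reads (9.90 to 27.2), few enough that only 2.73% of the peaks in that list had fewer. In clone 2 it held 166 reads (142 to 193), more than 84.3% of the peaks of its list, and in clone 3 43 reads (31.1 to 57.9). Clone 3 had a further peak 554 bp past the start, in intron 1, with a fold enrichment of 2.95. Areg was thus near the limit of calling in clone 1, while in clone 2 its fold was just above the median of marked promoters (39.3). The nearest gene in pattern, Ccn2, differed by up to 3.12 points.

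Hbegf (ENSMUSG00000024486.6, chromosome 18, 36504927 to 36515805, minus strand) encodes heparin-binding EGF-like growth factor. Its promoter peak covered the start in each clone, with fold enrichments of 14.9, 25.3 and 4.88 in clones 1, 2 and 3, and the percentiles were 68.5, 60.0 and 58.1 (62.2 ± 5.53, SD, n = 3). A further peak in clone 2, in intron 2 and within 1 kb of another annotated start of the gene, had a fold enrichment of 7.14. Adprm had the nearest percentiles, with a largest difference of 0.330 points.

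Tgfa (ENSMUSG00000029999.14, chr6:86195223-86275719, plus strand) encodes transforming growth factor alpha and had no promoter peak in clones 1 and 3. Its peak in clone 2 was 366 bp wide, lay over the start and exon 1, and held 30 reads (20.2 to 42.8) at a fold enrichment of 7.94, for a percentile of 47.9. Of 6797 peaks of clone 2 with reads within 10% of that number, 22.4% overlapped a peak of clone 1 and 19.3% a peak of clone 3. Those peaks, too, were not limited to promoters.

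Nras (ENSMUSG00000027852.14, chr3:103058285-103067914, plus strand) had the highest promoter fold enrichment of the 9 genes in each clone. By bases under promoter peaks it did not lead: its mean percentile was 80.9 against 90.7 for Ereg, and in clone 2 Hras was highest at 94.5, with Nras at 67.8. Genes are not on equal terms by this measure, since the stretch counted can grow with the number of annotated starts. Nras has 8 and Hras 7, against 1 for Ereg, and the bases of Hras include a peak shared with Lrrc56. The fold enrichments of Nras were 26.6, 56.8 and 21.6 in clones 1, 2 and 3. The summits lay 313, 196 and 209 bp past the start, and the peaks held 186 (160 to 215), 396 (358 to 437) and 176 (151 to 204) reads. Within its own list the peak held more reads than 96.1%, 98.8% and 98.4% of peaks. The percentiles among genes were 85.6, 85.2 and 99.6 (90.1 ± 8.18, SD, n = 3), so clone 3 stood above the others, which were alike. Mttp was nearest in pattern, with a largest difference of 0.716 points.

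Hras (ENSMUSG00000025499.18, chr7:141189105-141194005, minus strand) shares its promoter with Lrrc56, which starts within 1 kb on the other strand, and the marks of the pair cannot be told apart in these lists. Lrrc56 accordingly had the same 3 percentiles as Hras. In clones 1, 2 and 3 the stronger of the 2 peaks at the gene had a fold enrichment of 23.6, 35.0 and 5.74, and the percentiles were 81.9, 68.1 and 63.0 (71.0 ± 9.76, SD, n = 3). In clone 1 that peak was centred 172 bp and in clone 2 243 bp past the outermost Hras start. In clone 3 it was centred 772 bp before that start, on the Lrrc56 side, and the peak on the Hras side had a fold enrichment of 3.45 although it held more reads, 75 (59.0 to 94.0) against 44 (32.0 to 59.1). In clone 3 the level of Hras therefore rests on the peak farther from its own start.

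Across the 7 genes marked in all clones, the strongest summit lay within 663 bp past the outermost start, except for Areg in clone 1 (105 bp before), Ereg in clone 3 (179 bp before) and Hras in clone 3. The local background solved at peak summits on the chromosomes of the 9 genes was 0.931 to 1.01 times the mean of the other autosomes.

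The peaks beyond the promoters were counted in the gene body and within 100 kb of either end. In clones 1, 2 and 3 the 9 genes had 6, 9 and 7 body peaks, and 2, 4 and 2 genes had at least 1, where 15.1%, 27.2% and 16.5% of all protein-coding genes had one. Body peaks in clones 1 and 3 were found in Egfr and Ereg only. All 9 genes had a distal peak in every clone, and so did 75.6%, 80.2% and 77.3% of protein-coding genes. The distal peaks numbered 48, 74 and 51 over the 9 genes, of which 18, 32 and 20 lay more than 1 kb from the starts of other protein-coding genes. Over all protein-coding genes the median number of distal peaks per gene was 3.00, 5.00 and 3.00. In the sums for the 9 genes, peaks near both Ereg and Areg were counted for each. The regions formed by merging overlapping peaks of the clones numbered 102 around the 9 genes, of which 38 (37.3%) had a peak in all 3 clones, 41 in clone 2 alone, 11 in clone 3 alone and 1 in clone 1 alone. Over the genome 27.3% of 57727 such regions had a peak in all 3 clones. Of the 102, 41 lay within 1 kb of the start of a neighbouring protein-coding gene, and others lay at the starts of the 9 genes themselves. The share of the 57727 regions at starts was not computed, so the 2 percentages are not matched for promoters. Regions with a peak in 1 clone only numbered 33914 of the 57727, beside 53 of the 102 around the 9 genes. The list of clone 2 was also the longest, with 49587 peaks.

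**Figure D2:**
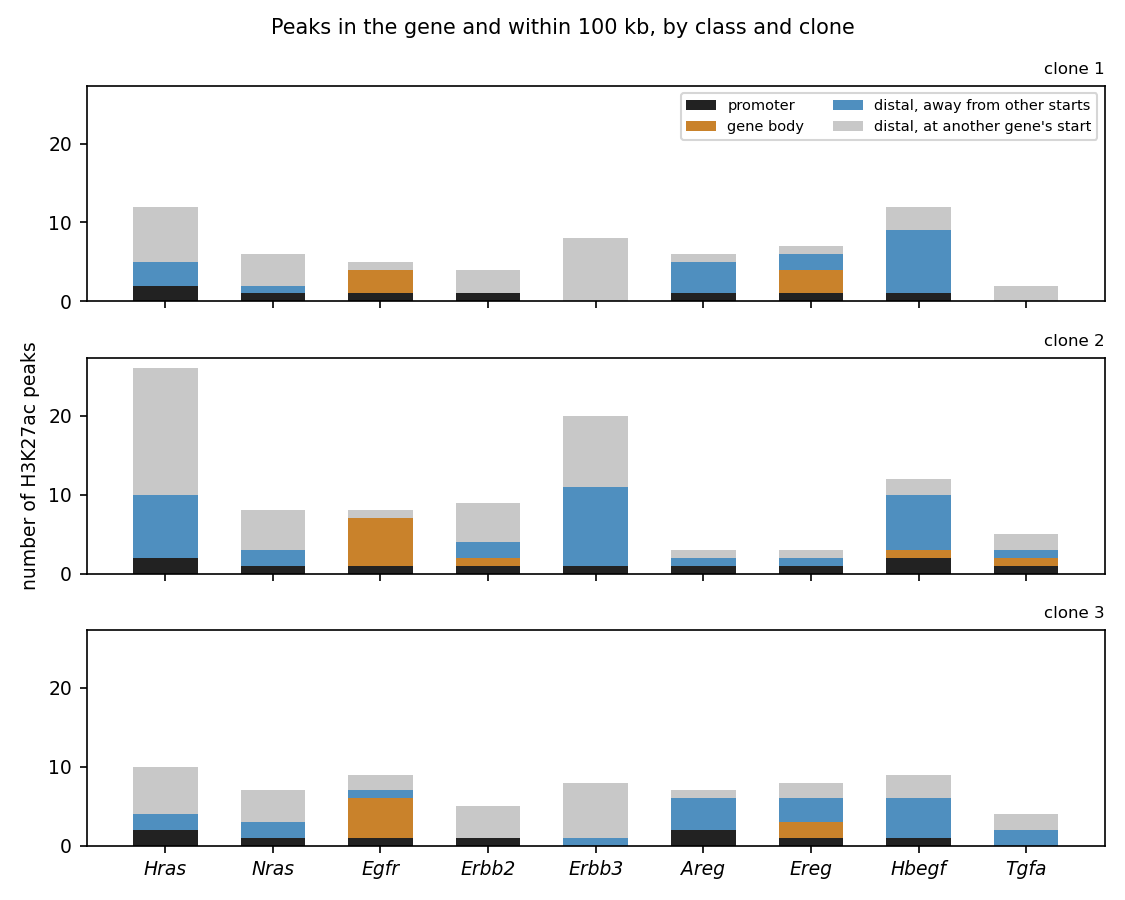
Number of H3K27ac peaks (vertical axis) in the promoter, in the gene body and within 100 kb for each of the 9 genes (horizontal axis), in a panel for each clone; distal peaks are split by whether they lie within 1 kb of another protein-coding gene's start. Body peaks make up most of the peaks of Egfr in every clone, and grey segments make up all distal peaks of Erbb3 in clone 1.

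Egfr had the most body peaks in clones 2 and 3, with 6 and 5, while in clone 1 it had 3, as did Ereg. Egfr is also the longest of the 9 genes, at 165956 bp against 19025 bp for Ereg. Body peaks were not scaled to gene length, so these counts do not rank the genes by density. The body peaks of Egfr fell into 9 regions. Of these, 8 lay in intron 1 of the transcript with 28 exons and 1, found in clone 2 alone, in intron 19. A single intronic region was marked in all 3 clones, 57.3 kb past the start, with fold enrichments of 9.64, 7.85 and 4.53 and 46 (33.7 to 61.4), 71 (55.5 to 89.6) and 42 (30.3 to 56.8) reads in clones 1, 2 and 3. In clone 1 its fold exceeded that of the Egfr promoter (6.83), and in clone 2 it was below it (29.2). In clone 3 their folds were close (4.44 at the promoter). A region 92.3 kb past the start was marked in clones 2 and 3, with fold enrichments of 12.6 and 5.50, and one at 48.2 kb in clones 1 and 2, with 5.45 and 9.47. The regions at 57.3 and 58.4 kb flank a short gap, and the latter was marked in clones 2 and 3 only. Outside the gene, the only distal region in all 3 clones was at the start of Fbxo48, 199 kb past the Egfr start.
The sequence of the intronic region found in every clone is given as 300 bases of GRCm38.p6 around the summit in clone 2, a window that lies inside the peak of each clone. None of the 6 motifs matched in it, so it has no capitals.
Egfr intron 1, chr11:16809397-16809696, plus strand: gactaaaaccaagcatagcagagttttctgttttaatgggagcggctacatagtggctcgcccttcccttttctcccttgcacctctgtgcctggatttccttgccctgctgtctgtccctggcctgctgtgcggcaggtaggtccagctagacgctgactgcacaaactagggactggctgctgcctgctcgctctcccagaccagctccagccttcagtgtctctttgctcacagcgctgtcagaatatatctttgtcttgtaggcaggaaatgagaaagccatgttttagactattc

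**Figure D3:**
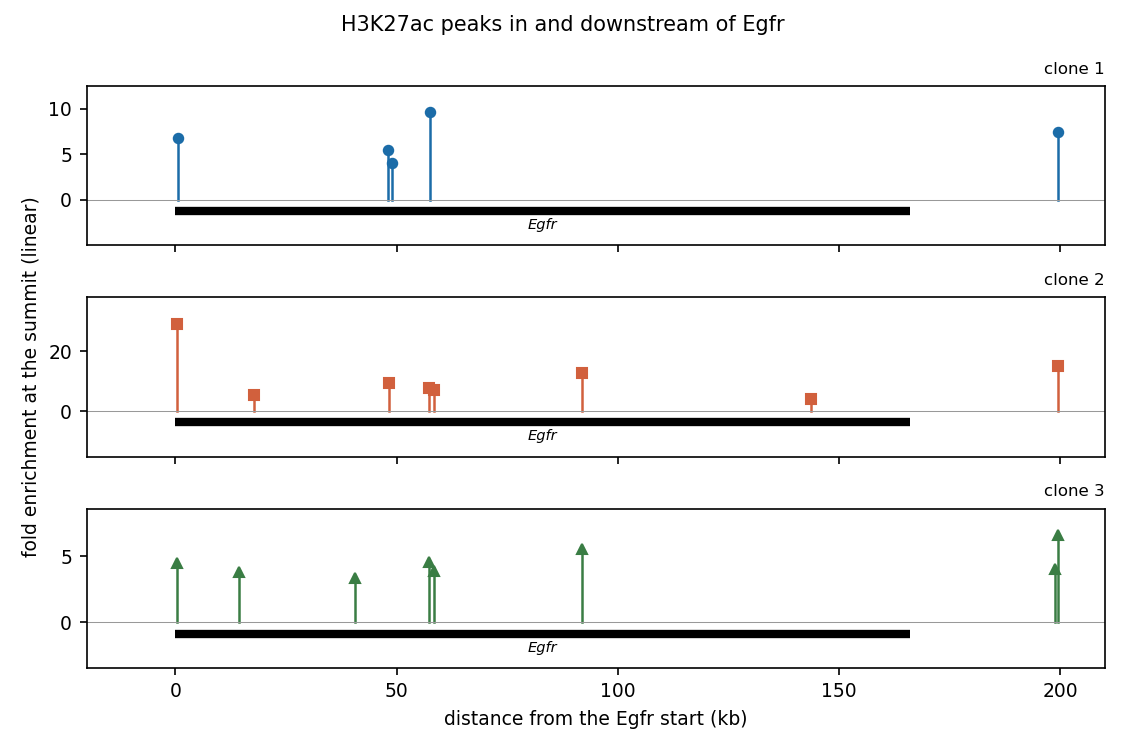
Fold enrichment at the summit (vertical axis, linear, scaled for each clone) of every H3K27ac peak from 20 kb before to 210 kb past the Egfr start (horizontal axis, kb), in a panel for each clone; the black bar is the gene. The peak near 57.3 kb is present in all 3 panels, and the promoter is the tallest peak in clone 2 alone.

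Erbb2 and Erbb3 lie in gene-dense stretches, and their distal peaks were mostly promoters of neighbours, except those of Erbb3 in clone 2. All 3 and all 4 distal peaks of Erbb2 in clones 1 and 3 were within 1 kb of another start, and the strongest in every clone was the Pgap3 promoter 12.1 kb before the Erbb2 start, with fold enrichments of 61.3 and 10.5 in clones 2 and 3 and 125 reads (104 to 149) in clone 1. In all 3 clones its fold was above that of the Erbb2 promoter. The remaining shared regions were at Stard3 and Mien1. Clone 2 had a weak peak in exon 27 of Erbb2, the last exon, with a fold enrichment of 4.57 and 19 reads (11.4 to 29.7). Around Erbb3, which had no body peak in any clone, 7 distal regions had peaks in all 3 clones and each was at a start of another gene: Myl6 and Myl6b, Myl6b alone, Esyt1, Rpl41 with Zc3h10, Pa2g4, Rps26 and Suox. In clone 2, 10 of the 19 distal peaks of Erbb3 were away from other starts, against 0 of 8 and 1 of 8 in clones 1 and 3.

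Ereg and Areg share their surroundings, since each lies within 100 kb of the other, and the same peaks enter both counts. In clone 1 there were 3 Ereg body peaks, with fold enrichments of 4.57, 3.08 and 4.03 and summits 1.32, 8.43 and 8.83 kb past the start. In clone 3 there were 2, with fold enrichments of 4.90 and 6.26 and summits at 1.59 and 9.02 kb, the latter 3132 bp wide with 78 reads (61.7 to 97.3). In clone 2 Ereg had no body peak. The region around 8.04 kb lies in intron 1. A region 36.9 kb before the Ereg start was likewise marked in clones 1 and 3 (fold enrichments of 5.11 and 8.66) and not in clone 2. This region lies just past the end of Epgn, another EGF family ligand gene that ends at position 91035215, and is nearer to Epgn than to Ereg.

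Between the 2 genes, 36.0 kb past the Ereg start and 29.0 kb before the Areg start, a region had peaks in all 3 clones with fold enrichments of 6.01, 6.07 and 7.53 and 23 (14.6 to 34.5), 32 (21.9 to 45.2) and 72 (56.3 to 90.7) reads. In clone 3 the peak was 1573 bp wide. The peaks of clones 1 and 2 lay within it but did not overlap each other, with 1038 bp at one end and 276 bp at the other. In clone 3 this peak exceeded the Areg promoter in fold (5.62), as it did in clone 1 (4.77).
The 300 bases around the clone 3 summit, which lie inside the peak of clone 1 as well and outside that of clone 2, held 1 TCF/LEF match and 1 TEAD match, in capitals. Among windows of this length at summits of clone 3 away from starts of protein-coding genes, 4.68% held a TCF/LEF and 17.2% a TEAD match.
Ereg to Areg, chr5:91110140-91110439, plus strand: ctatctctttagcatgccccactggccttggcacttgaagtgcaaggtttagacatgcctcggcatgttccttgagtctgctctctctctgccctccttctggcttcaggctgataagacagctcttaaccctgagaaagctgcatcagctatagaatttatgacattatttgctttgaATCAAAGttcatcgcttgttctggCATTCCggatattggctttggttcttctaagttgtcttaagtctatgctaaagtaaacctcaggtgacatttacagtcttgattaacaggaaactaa

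**Figure D4:**
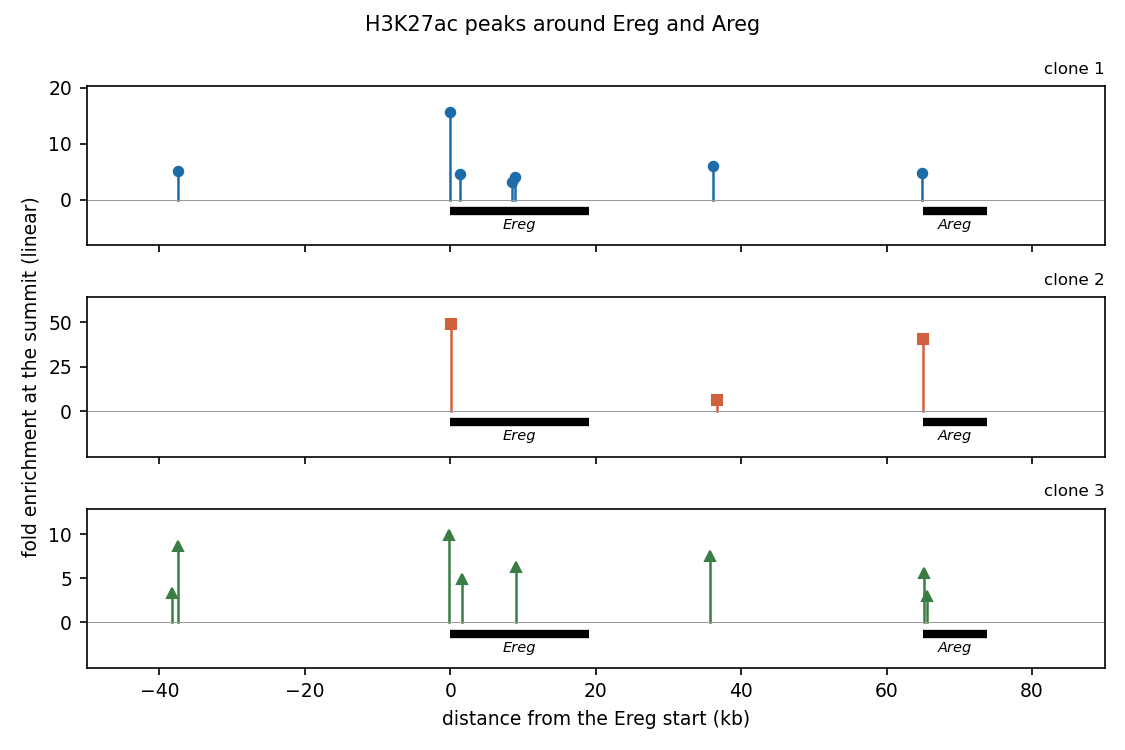
Fold enrichment at the summit (vertical axis, linear, scaled for each clone) of the H3K27ac peaks of Ereg and Areg against the distance from the Ereg start (horizontal axis, kb), in a panel for each clone; black bars are the genes. The peak near 36.0 kb appears in all panels, and the peaks inside Ereg appear in clones 1 and 3.

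Hbegf had 11, 9 and 8 distal peaks in clones 1, 2 and 3, of which 8, 7 and 5 were away from starts of other protein-coding genes. Merged, they gave 5 distal regions with peaks in all 3 clones, and 3 of these were away from other starts. The nearest was 22.7 kb past the start, beyond the end of the gene, with fold enrichments of 7.28, 25.1 and 10.2 and 32 (21.9 to 45.2), 100 (81.4 to 122) and 96 (77.8 to 117) reads in clones 1, 2 and 3. In clone 3 this peak was 2596 bp wide and exceeded the promoter in fold (4.88). In clone 1 it was below the promoter (14.9), and in clone 2 their folds were close (25.3 at the promoter). The other 2, at 99.5 and 111 kb, had fold enrichments of 7.83, 26.5 and 6.60 and of 10.7, 12.1 and 9.13. A region at 58.6 kb was marked in clones 1 and 3 only (6.55 and 8.01). The strongest distal peak in each clone was the promoter of Ankhd1, 44.7 kb before the start.

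Tgfa had 2 distal regions with peaks in all 3 clones, both at starts of other genes (Fam136a and Snrpg) beyond its far end. Its only body peak was in clone 2, in intron 1 and 24.5 kb past the start, with a fold enrichment of 10.0 and 68 reads (52.8 to 86.2), more than at its promoter in that clone. A region 14.8 kb before the start was weakly marked in clones 2 and 3 (4.99 and 4.03).

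Neither Hras nor Nras had a peak counted as a body peak. In clone 2 a peak inside Hras, 2.08 kb past the outermost start and over exon 4 and intron 4, was counted as a promoter peak. It covered another annotated start of Hras and had a fold enrichment of 4.08. Around Nras the distal regions with peaks in all 3 clones included those at starts of Sike1 and, at 2 places, Dennd2c. The Sike1 promoter had fold enrichments of 29.9, 65.8 and 9.59 in clones 1, 2 and 3, above Nras in clones 1 and 2 and below it in clone 3. Around Hras 7 distal regions had peaks in all 3 clones, 6 of them at starts of Ptdss2, Rnh1 (2 regions), Rassf7, Phrf1 and Irf7. The seventh, 29.2 kb past the start, had fold enrichments of 14.7, 20.8 and 3.35. Of the 24 distal regions of Hras, 14 had a peak in clone 2 alone, the clone with the longest list. Over the genome 33914 of 57727 merged regions had a peak in 1 clone only.

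Peaks at most 12.5 kb apart were joined into stitched domains, a step used to find enhancer clusters, and ranked by the bases under peaks. The 3 lists gave 14560, 18280 and 16371 domains. The domain at Ereg held 4159, 1862 and 7053 bases under 4, 1 and 3 peaks and ranked 1245, 5497 and 210 in clones 1, 2 and 3, at percentiles of 91.4, 69.9 and 98.7. It ranked highest of the 9 genes in clones 1 and 3, and in clone 2 the domains of Erbb2, Hras and Hbegf were above it. In clone 3 it ran over 11167 bp from the promoter into intron 1, with no start of another gene inside. The Areg promoter was in a separate domain, at percentiles of 17.4, 39.9 and 43.1.

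The Erbb2 domain held 2 peaks in every clone, the Erbb2 and Pgap3 promoters, and was at percentiles of 79.1, 85.9 and 73.0. It is therefore a domain of a gene pair. That of Hras, with Lrrc56, was at 40.6, 83.5 and 64.0. Nras had a domain of its single promoter peak, at 67.9, 54.9 and 63.5, although its promoter led the 9 genes by fold. Hbegf was at 34.3, 74.6 and 36.1, the clone 2 domain joining 4 peaks over 9256 bp, and Egfr was at 64.9 and 24.6 in clones 2 and 3 and ranked 10628 in clone 1, its intronic peaks lying too far from the promoter to be joined. Erbb3 and Tgfa had a domain in clone 2 only, at 53.6 and 14.2. Counting a missing domain as 0, the median over the 9 genes was 34.3, 64.9 and 43.1 in clones 1, 2 and 3 (47.5 ± 15.8, SD, n = 3), while the median of all domains is 50.0 by construction.

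**Figure D5:**
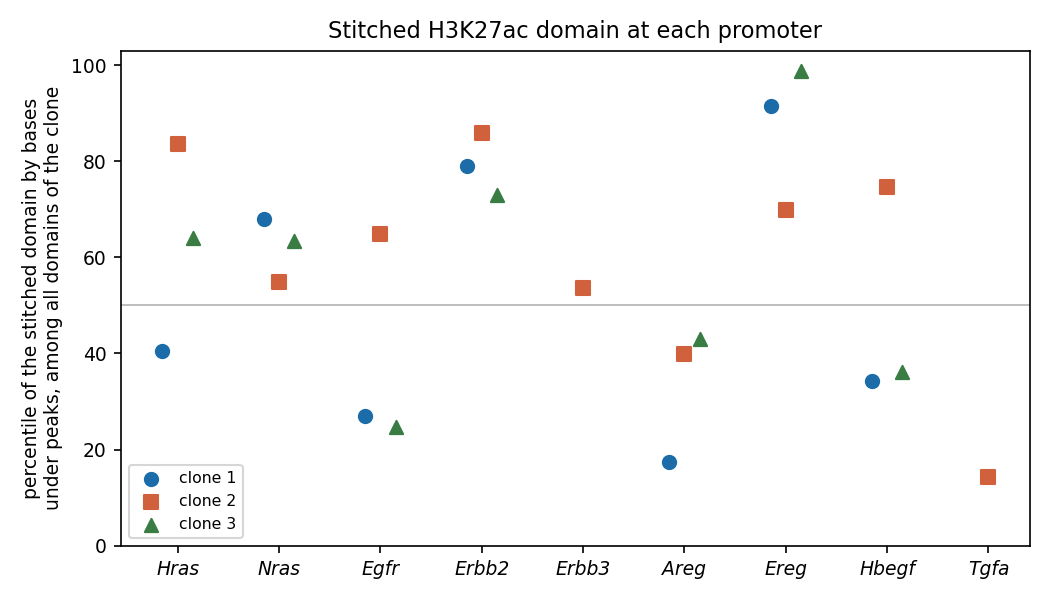
Percentile of the stitched H3K27ac domain at each promoter by bases under peaks, among all domains of the same clone (vertical axis, 0 to 100), for the 9 genes (horizontal axis) in each clone; a gene without a symbol for a clone had no domain, and the line marks the middle of all domains. Ereg in clone 3 lies at 98.7 and Tgfa in clone 2 at 14.2.

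The surrounding pathway was read from a list of 44 further genes. That list was chosen with earlier results of these data known. Of these 37 (84.1%) had a promoter peak in all 3 clones, beside 46.5% of all protein-coding genes, while 4 had one in some clones and 3 in none. The median percentile was 84.8, 86.1 and 82.5 in clones 1, 2 and 3, beside 25.1, 50.0 and 25.9 over all protein-coding genes. In clones 1 and 3 the latter median is the value shared by genes without a peak. Of the 7 other ligands of the family, 2 were marked in all clones. Egf had fold enrichments of 13.7, 36.8 and 6.92 and Nrg1, a ligand of Erbb3, 15.2, 33.3 and 11.4. Btc, Nrg2 and Nrg4 had promoter peaks in clone 2 only (19.1, 15.7 and 20.0), and Epgn, which adjoins Ereg, and Nrg3 had none. Erbb4, the remaining receptor of the family, had none either.

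Both ligand-releasing proteases, Adam10 and Adam17, were marked in all clones, against the same background of 46.5%. So were all 6 adaptors and exchange factors (Grb2, Shc1, Gab1, Ptpn11, Sos1 and Sos2), the 3 Ras-related genes (Rras, Rras2 and Mras), the 3 genes of Ras GTPase activation (Nf1, Rasa1 and Rasa2), all 10 feedback inhibitors and all 5 transcriptional targets. The feedback inhibitors, which include the Sprouty and Spred genes, the ERK phosphatases Dusp4, Dusp5 and Dusp6 and the receptor antagonists Errfi1 and Lrig1, had median percentiles of 87.6, 89.6 and 85.7. The targets Etv4, Etv5, Egr1, Fosl1 and Phlda1 had 83.8, 87.0 and 78.7. Of the 7 kinases 6 were marked in all clones, and Araf, on chromosome X, lacked a promoter peak in clone 3 (11.5 and 30.0 in clones 1 and 2).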

How the data were processed

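H3K27ac ChIP-seq was done on 3 Cdkn2ab-/- tumour cell clones. The authors aligned reads by Bowtie2 against GRCm38 and ran MACS2 2.1.1 once for each clone, after pooling the 2 libraries of clone 3. The deposited fold enrichment is a linear ratio of ChIP pileup over local background at the summit, and the other deposited columns give its p-value and q-value as −log10. Peaks reached down to a −log10 q of 1.30, 1.33 and 1.35, so weaker marks do not appear.

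Peaks of the autosomes, X and Y were assigned to every GENCODE M21 transcript start (promoter, within 1 kb), to gene bodies and to 100 kb on either side. Off these chromosomes 5, 21 and 3 peaks were left out. Percentiles were taken over all 21938 protein-coding genes. Peaks at most 12.5 kb apart were joined. Regions of the clones were merged at an overlap of at least 1 bp. Summit reads were solved from fold enrichment and p as whole reads, which succeeded for all but 1, 1 and 0 peaks, and the step was tested on simulated data. Tools were scipy 1.17.1, pandas 2.3.3, numpy 2.4.6 and, for plots, matplotlib 3.10.9, under Python 3.11.15. Sequences are RefSeq windows and GRCm38.p6. Genes named outside the 9 were the nearest gene in pattern, genes at the strongest distal peak or sharing a promoter or domain, pathway genes marked in some clones only, the EGF ligands and the markers. Neighbours at other shared regions were picked with their values in view. The 9 genes and all lists were chosen with earlier results of these data known. No test between groups was possible with 1 condition. Alternatives were other windows, starts, thresholds, joining distances and rankings, an equal number of peaks per clone, and leaving out each clone. Allele counts and IgG reads were not analysed here. 1 distal region is not reported here.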

Additional observations from a re-analysis of the deposited data

How the results depend on the processing

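Of 63 alternatives for the 7 summary values, 59 stayed within 1.5 times a count or within 1 SD of a percentile, and none reversed. The mean number of body peaks per clone, 7.33 over the 9 genes, fell to 4.00 with a −log10 q of at least 5. The mean number of distal peaks, 57.7, became 30.7 within 50 kb, 124 within 200 kb and 23.3 without peaks at the starts of other genes; each of these alternatives changes the number of peaks by its construction. The 7 genes marked in all clones became 6 when a peak had to cover the start base, where Egfr dropped out in clones 1 and 3, and 5 with a −log10 q of at least 5, where Areg dropped out in clone 1 and Egfr in clone 3. Erbb3 and Tgfa were marked in clone 2 alone also with an equal number of 29182 peaks per clone. Leaving out each clone gave 7 genes in every case, with 7.00 to 8.00 marked per clone, 6.50 to 8.00 body peaks, 49.5 to 62.5 distal peaks and a median domain percentile of 38.7 to 54.0. By bases under peaks in place of fold, the mean percentile moved by over 1 SD for Nras (90.1 to 80.9), Egfr (58.0 to 64.2) and Ereg (77.6 to 90.7), which puts Ereg above Nras; the cause was not tested. No paired analysis was possible because the study holds 1 condition, so equal replicate numbers join no groups. A peak list shows neither reads below its threshold nor the depth of a library, so the absence of a peak is not the absence of the mark.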
